A study of Mus musculus with 6 samples.

Results

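Extracellular adenosine is made and removed by a short chain of enzymes, and 7 genes of that chain were examined in naive CD8 T cells: Nt5e, Entpd1, Adora2a, Ada, Adk, Pnp and Dpp4. They were found by their symbols in a table of 11162 genes, of which 6 had a row. Entpd1, which encodes CD39, had none and was not analysed here. The set had been proposed with the fold change of Nt5e in these same libraries in view, so the differences of the 6 genes between the sorted populations are given as a description. Whether a fit across all genes called them is reported too, and supports nothing, since the choice used the same contrast.

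The cells came from the spleen of Nur77-GFP mice, which carry the transgene Tg(Nr4a1-EGFP)GY139Gsat, a reporter that makes green fluorescent protein from the regulatory region of Nr4a1, a gene switched on by signals through the T-cell receptor. All 6 libraries were from cells sorted as CD8+ CD44lo CD62Lhi Qa2hi OT-I cells. They differed by the last gate, Nur77-GFPhi in 3 libraries (GFP-hi) and Nur77-GFPlo in the other 3 (GFP-lo). No age and no treatment is named in the labels, and nothing says whether the 3 libraries of a group came from separate mice, so p-values measure only the spread between these samples, which may be technical.

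CD73, the product of Nt5e, is an enzyme anchored to the outer membrane that removes the phosphate from AMP and releases adenosine. CD39 supplies it with AMP by cutting ATP and ADP. In T cells adenosine acts mainly through the receptor encoded by Adora2a, which raises cyclic AMP and dampens signalling through the T-cell receptor. Adenosine deaminase (Ada) turns adenosine into inosine, adenosine kinase (Adk) returns it to AMP inside the cell, and purine nucleoside phosphorylase (Pnp) splits inosine and guanosine. Dpp4 encodes CD26, a surface peptidase that in humans also holds adenosine deaminase at the membrane.

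The sequences just before the start sites of Nt5e and of Cd38, the gene of a surface enzyme that consumes NAD, are shown because these genes had the largest log2 fold changes in either direction among the 6 genes and the pathway genes tested with them. The 250 bases upstream of each start are given 5′ to 3′ on the gene's strand (RefSeq, GRCm38.p6), at chr9:88327359-88327608 for Nt5e (plus strand) and at chr5:43868559-43868808 for Cd38 (plus strand). Capitals mark GC boxes.
Nt5e: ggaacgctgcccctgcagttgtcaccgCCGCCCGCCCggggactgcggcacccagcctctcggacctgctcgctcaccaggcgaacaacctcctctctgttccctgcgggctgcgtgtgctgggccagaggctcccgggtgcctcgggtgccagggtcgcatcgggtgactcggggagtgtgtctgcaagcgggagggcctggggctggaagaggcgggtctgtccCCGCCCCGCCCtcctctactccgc
Cd38: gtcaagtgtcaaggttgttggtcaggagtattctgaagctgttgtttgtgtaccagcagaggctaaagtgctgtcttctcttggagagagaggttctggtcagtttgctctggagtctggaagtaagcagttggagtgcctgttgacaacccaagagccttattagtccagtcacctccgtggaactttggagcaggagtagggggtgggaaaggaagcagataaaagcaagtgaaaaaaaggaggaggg
The Nt5e window was 72.0% G and C with 21 CG pairs and the Cd38 window 48.8% with 1, against medians of 52.4% and 6 over 32851 promoter windows of this length. On both strands the GC box (GGGCGG), the binding element of the Nr4a factors (AAAGGTCA), the cyclic AMP response element (TGACGTCA) and its short form (TGACG, which the full element contains) were searched. The Nt5e window held 4 GC boxes on the minus strand, in overlapping pairs at 223 to 214 and at 24 to 14 bases before the start, and 32.7% of all windows held at least 1. Cd38 had none of the 4 motifs and Nt5e no other than the GC box, where the remaining motifs occur in 1.34%, 1.55% and 17.8% of windows. Absence says only that these letters are not in this window.

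The first question was where the adenosine-forming enzyme stood in cells with a bright or a dim reporter. Nt5e (Entrez 23959, chr9:88327609-88372089, GRCm38) had 0.856, 0.77 and 0.629 RPKM in the 3 GFP-hi libraries and 1.48, 1.94 and 1.47 RPKM in the 3 GFP-lo libraries. RPKM scales reads to gene length and library depth, so values of different genes can be compared. Every GFP-lo library lay above every GFP-hi library, as was so for 9.84% of all genes averaging at least 1 RPKM. GFP-hi averaged 0.752 ± 0.115 RPKM and GFP-lo 1.63 ± 0.269 RPKM (SD, n = 3 each), which is 2.16-fold more in GFP-lo. On the log2(RPKM + 1) scale, which understates the change of such low genes, GFP-hi minus GFP-lo came to -0.58 (standard error 0.0978, 95% interval -0.81 to -0.36). In these bulk samples, fewer cells with the transcript and less of it per cell cannot be told apart.

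In a fit across all 9351 genes with a mean of at least 1 RPKM, genes with an adjusted p under 0.05 were called (limma, Benjamini-Hochberg). As a description, Nt5e was among the genes called lower in GFP-hi and the other 5 were not called. Over all genes tested, 3.95% were called, 2.46% higher (230 genes) and 1.49% lower (139 genes). With trimmed mean of M values scaling, 201 were higher and 186 lower. Nt5e led to the choice of the set, and its mean of 1.19 RPKM over the 6 libraries passed the minimum through the GFP-lo libraries, so nothing is read from its call. Its level exceeded that of only 2.14% of tested genes.

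**Figure D1:**
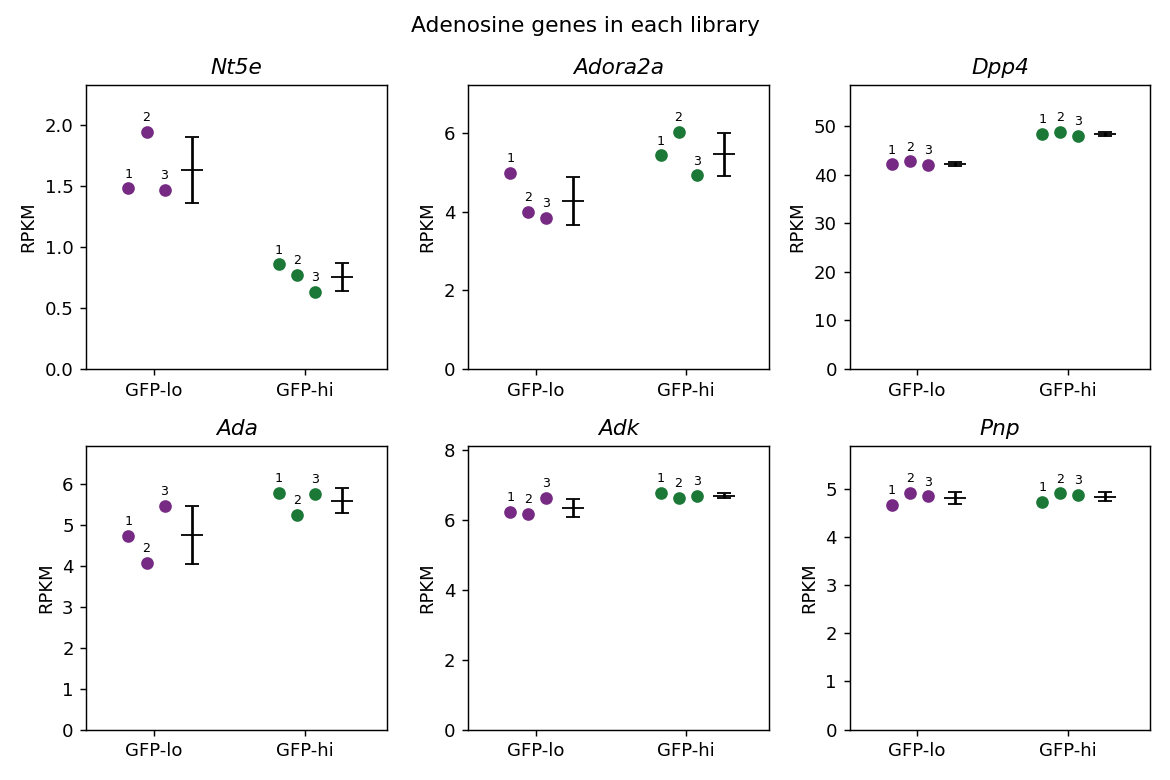
RPKM of the 6 genes in each library, numbered by replicate, with the mean and SD of each group beside the points; each axis starts at 0. The groups are apart for Nt5e (0.629 to 0.856 against 1.47 to 1.94 RPKM) and Dpp4 (48.0 to 48.7 against 41.9 to 42.7 RPKM) and overlap for the other 4. Over all genes tested, 26.9% had groups that did not overlap.

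The reads behind these values were estimated from the step that 1 read makes in low RPKM values, which gave library depths of 26170000 to 35940000 reads. Taking the 3995 bases of its protein-coding transcript (GENCODE M21), which did not give whole reads and may not be the length the authors used, Nt5e rested on about 74 to 104 reads in the GFP-hi and 153 to 220 reads in the GFP-lo libraries. Counting alone would then give a coefficient of variation of 6.74% to 11.6%, and that between replicates was 15.2% in GFP-hi and 16.6% in GFP-lo. PCR copies cannot be told from separate molecules here, so the true sampling error can only be larger.

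Olfactory and vomeronasal receptor genes, which belong to sensory neurons of the nose, had low values that differed between libraries and overlapped between the sorted groups. Their median over 41 listed genes was 0.292, 0.037 and 0.419 RPKM in GFP-hi and 0.038, 0.263 and 0.583 RPKM in GFP-lo libraries, so in GFP-hi replicate 3 it came near the value of Nt5e. In the libraries where it was lowest, GFP-hi replicate 2 and GFP-lo replicate 1, Nt5e had 0.77 and 1.48 RPKM, 1.92-fold higher in GFP-lo. With each library's median subtracted, Nt5e had 0.564, 0.733 and 0.21 RPKM in GFP-hi and 1.44, 1.67 and 0.882 RPKM in GFP-lo, and the groups still did not overlap. Its log2 fold change was then -0.64 and it was no longer called. It was called with that median as a covariate (-0.58) and among the 4 libraries where the median was higher (-0.63). It was not called in 2 of the 6 fits that left out a library, without GFP-hi replicate 3 (-0.53) or GFP-lo replicate 2 (-0.50), or among the 4 libraries with less heat-shock RNA (-0.51). Nothing is read from these calls either, since Nt5e led to the choice of the set.

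**Figure D2:**
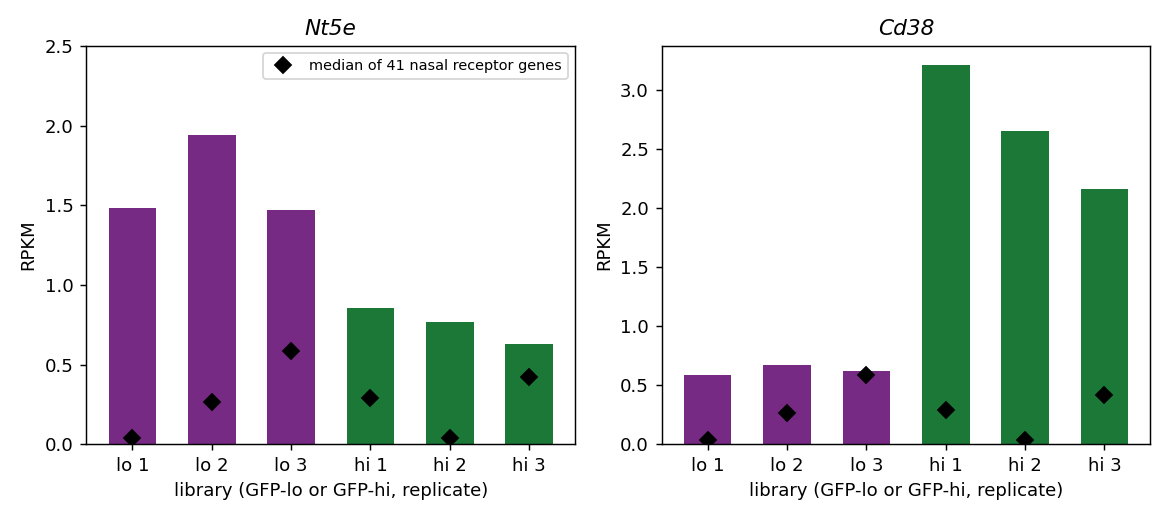
Bars give the RPKM of Nt5e and of Cd38 in each library, and diamonds the median RPKM of 41 olfactory and vomeronasal receptor genes in the same library. Nt5e is higher in the GFP-lo libraries and Cd38 in the GFP-hi libraries, while the diamonds, from 0.037 to 0.583 RPKM, range widely within both groups.

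Adora2a (Entrez 11540, chr10:75316877-75334792), the receptor for adenosine, had 5.44, 6.03 and 4.93 RPKM in GFP-hi and 4.99, 4.0 and 3.85 RPKM in GFP-lo libraries. GFP-lo replicate 1 lay above GFP-hi replicate 3, so the groups overlapped. Averages of 5.47 ± 0.55 and 4.28 ± 0.621 RPKM (SD, n = 3 each) gave a log2 fold change of 0.30 with a 95% interval from 0.07 to 0.53 that is not adjusted for the number of genes. The gene was not called in 17 of the 19 alternative fits that tested it, and its fold change was positive in all 19. None of the other adenosine receptor genes (Adora1, Adora2b, Adora3) had a row.

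Dpp4 (Entrez 13482, chr2:62330073-62412315) was by far the most abundant of the 6 and the steadiest between replicates. It had 48.4, 48.7 and 48.0 RPKM in GFP-hi and 42.1, 42.7 and 41.9 RPKM in GFP-lo libraries, with no overlap. The group means were 48.4 ± 0.375 and 42.2 ± 0.401 RPKM (SD, n = 3 each), 1.15-fold higher in GFP-hi. Such separation was common: the groups did not overlap for 26.9% of all genes tested. On the log2 scale Dpp4 differed by 0.19 (standard error 0.0463, 95% interval 0.09 to 0.30). The gene was not called, and of 20 alternative fits it was called with array quality weights only. Its coefficient of variation between replicates, 0.775% in GFP-hi and 0.95% in GFP-lo, was below the 1.07% to 1.32% that counting about 5776 to 8715 reads would give for a transcript of 5268 bases. Its level exceeded that of 92.2% of tested genes.

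Of the enzymes that remove adenosine, Ada (Entrez 11486, chr2:163726571-163750239) had 5.78, 5.24 and 5.75 RPKM in GFP-hi and 4.73, 4.07 and 5.47 RPKM in GFP-lo libraries. GFP-lo replicate 3 lay above GFP-hi replicate 2. On average Ada stood at 5.59 ± 0.303 and 4.76 ± 0.703 RPKM (SD, n = 3 each), and the log2 fold change of 0.20 had a 95% interval from -0.01 to 0.42. Leaving out GFP-lo replicate 3 or another single library moved it between 0.11 and 0.29.

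Adk (Entrez 11534, chr14:21052574-21448569) had 6.76, 6.61 and 6.68 RPKM in GFP-hi and 6.21, 6.17 and 6.63 RPKM in GFP-lo libraries, a log2 fold change of 0.07 (95% interval -0.06 to 0.20). GFP-lo replicate 3 reached into the GFP-hi range.

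Pnp (Entrez 18950, chr14:50944303-50953412) had 4.73, 4.90 and 4.87 RPKM in GFP-hi and 4.66, 4.91 and 4.84 RPKM in GFP-lo libraries. The ranges nearly coincided, and its log2 fold change of 0.01 had a 95% interval from -0.12 to 0.14. The neighbouring gene Pnp2, a close copy, had no row, and how reads shared by the copies were counted is not given in the sources used here, so the value of Pnp is uncertain. No fit called Ada, Adk or Pnp, over 20, 20 and 19 alternatives.

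The order of the levels was the same at its top and bottom in both populations: Dpp4, then Adk, and Nt5e last, with ranges that did not touch those of their neighbours. In between, Ada and Adora2a overlapped within GFP-hi, where Adora2a (at least 4.93 RPKM) lay just above Pnp (at most 4.90 RPKM). Within GFP-lo, Pnp overlapped with Ada, and Ada with Adora2a. Set against Nt5e in the same library, Ada was 6.75, 6.81 and 9.15 times as abundant per length in GFP-hi and 3.20, 2.1 and 3.74 times in GFP-lo libraries. The corresponding ratio of Adora2a to Nt5e was 6.35, 7.84 and 7.85 in GFP-hi and 3.38, 2.06 and 2.63 in GFP-lo. Both ratios divide by Nt5e, so they carry its difference between the groups and say nothing further about Ada or Adora2a. The ratio of Dpp4 to Ada, which leaves Nt5e out, was 8.37, 9.30 and 8.34 in GFP-hi and 8.90, 10.5 and 7.65 in GFP-lo, with overlapping groups.

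**Figure D3:**
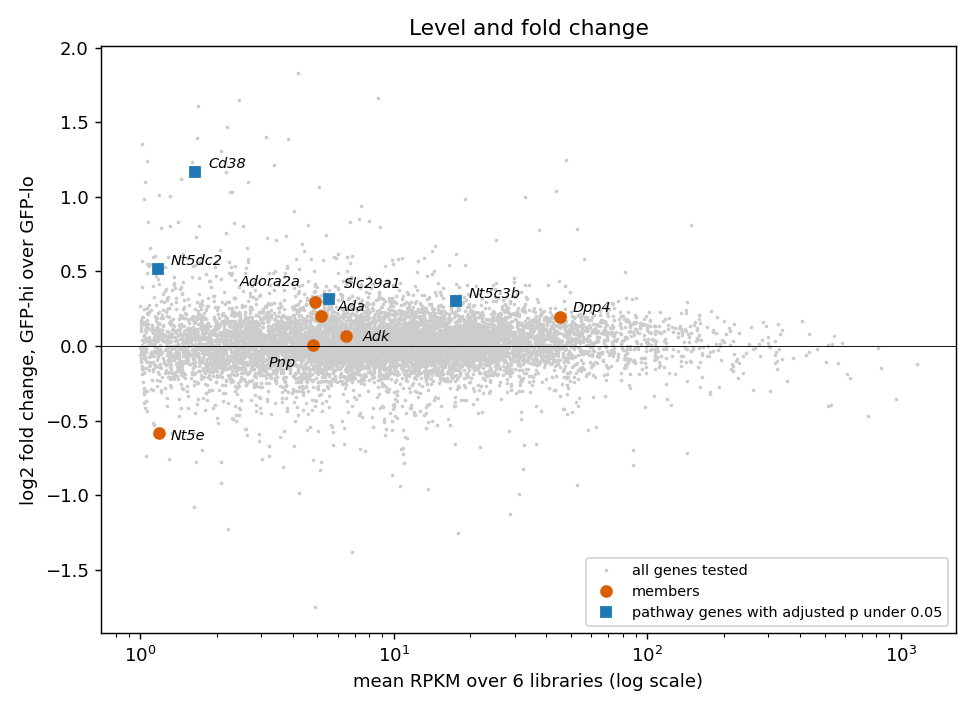
Mean RPKM over the 6 libraries (log axis) against the log2 fold change of GFP-hi over GFP-lo for all 9351 genes tested, with the 6 genes and the 4 called pathway genes marked. Nt5e lies at the low end of expression (1.19 RPKM) at -0.58 and Dpp4 among abundant genes (45.3 RPKM) at 0.19.

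Other genes that make, move or use adenosine and purines were compared next, from lists drawn up by function. Earlier results of these data were known when the lists were chosen, so their p-values are not independent of that choice. Of 100 symbols, 70 had a row and 63 passed the minimum. In the fit across all genes 4 of the 63 rose in GFP-hi, 0 fell and 59 were not called, beside 2.46% called higher and 1.49% called lower over all genes. At an unadjusted p under 0.05 (limma) 11 were higher and 3 lower, 14 of the 63 in either direction. The same threshold was passed by 1885 of all 9351 genes tested, in either direction. The 63 had a median fold change of 0.04 on the log2 scale, and all tested genes 0.02. Values did not overlap between the groups in 13 genes with higher and 5 with lower values in GFP-hi, where 17.1% and 9.84% of all genes did so. The 4 that rose were Cd38, Slc29a1, Nt5c3b and Nt5dc2. Under other settings up to 3 of the 63 were called lower: Entpd6, Acpp and Enpp4 with array quality weights, Entpd6 alone with quantile normalization, trimmed mean of M values scaling or the nasal median as covariate, and Acpp alone without the variance trend. Array quality weights also brought higher calls for Panx1, Ak3, Dck and Paics.

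Cd38 showed the widest difference of the lists. Its enzyme turns NAD into ADP-ribose, from which the phosphodiesterase encoded by Enpp1 can make AMP, the substrate of CD73. Cd38 (Entrez 12494) had 3.21, 2.65 and 2.16 RPKM in GFP-hi and 0.587, 0.667 and 0.619 RPKM in GFP-lo libraries. Averages were 2.67 ± 0.527 and 0.624 ± 0.0403 RPKM (SD, n = 3 each), 4.28-fold higher in GFP-hi and higher in 3 of 3 libraries than in any GFP-lo library. On the log2 scale this was 1.17 (standard error 0.108, limma adjusted p = 0.0019; 0.000899 to 0.036 over 19 alternatives), and Cd38 was called in all 6 fits that left out a library. Cd38 passed the minimum through the GFP-hi libraries, and it was called without a minimum too. With the 3270 bases of its protein-coding transcript, all 6 values fell within 0.04 of whole reads, at 299, 294 and 208 reads in GFP-hi and 69, 62 and 53 reads in GFP-lo. Counting alone would give a coefficient of variation of 5.78% to 13.7%, the highest at 53 reads. The GFP-lo values spread less than counting alone would give. In GFP-lo replicate 3 the nasal receptor median of 0.583 RPKM was close to the level of Cd38. With the median subtracted, Cd38 averaged 2.42 RPKM in GFP-hi against 0.33 RPKM in GFP-lo, a 7.35-fold difference that rests in part on 0.036 RPKM in GFP-lo replicate 3. In the libraries with the lowest median, Cd38 was 4.51-fold higher in GFP-hi (2.65 against 0.587 RPKM).

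In that fit the remaining extracellular enzymes were not called, and 8 of the 12 tested genes of this group had negative fold changes. Over all 9351 genes tested, 4164 had negative fold changes. Enpp1 had 0.968, 0.524 and 0.987 RPKM in GFP-hi and 0.927, 1.44 and 1.39 RPKM in GFP-lo libraries (log2 fold change -0.31, limma adjusted p = 0.26). Relatives of CD39 that act mostly inside the cell or in its secretory pathway had -0.21 (Entpd6), -0.13 (Entpd4), -0.08 (Entpd4b) and -0.07 (Entpd5), with adjusted p values in limma from 0.087 to 0.78. Entpd4 and Entpd4b are near-identical copies whose reads can be split, so their values are uncertain. Acpp encodes an acid phosphatase that can also release adenosine from AMP. It had 1.57, 1.67 and 1.51 RPKM in GFP-hi and 2.05, 2.15 and 2.08 RPKM in GFP-lo, without overlap (log2 fold change -0.26, limma adjusted p = 0.075).

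Among listed genes below the minimum, Enpp2, Enpp3 and Slc28a3 followed the libraries rather than the sort. Each had at most 0.021 RPKM in GFP-hi replicate 2 and at most 0.047 RPKM in GFP-lo replicate 1, the libraries with the lowest nasal receptor median, and from 0.14 to 0.594 RPKM in the other 4. Nt5e had 0.77 RPKM in GFP-hi replicate 2 and 1.48 RPKM in GFP-lo replicate 1. The part of such background in its values was not tested. Entpd7 had 0.699 to 0.733 RPKM in GFP-hi and 0.593 to 0.675 RPKM in GFP-lo.

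Slc29a1, the gene of an equilibrative transporter that lets adenosine cross the membrane, had 6.34, 6.29 and 6.20 RPKM in GFP-hi and 4.54, 4.95 and 5.09 RPKM in GFP-lo libraries. The difference came to 0.31 on the log2 scale (standard error 0.0608, limma adjusted p = 0.030), and it was higher in 3 of 3 libraries. Leaving out any 1 of the 6 libraries ended the call, with adjusted p values over 20 alternatives from 0.00667 to 0.137. The concentrative transporter gene Slc28a2 was more abundant, with 50.5 ± 1.84 RPKM among GFP-hi against 54.7 ± 2.40 RPKM among GFP-lo libraries (SD, n = 3 each), and was not called (-0.11, limma adjusted p = 0.31).

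The 7 intracellular nucleotidase genes tested had fold changes above 0, and 2 of the 7 passed the test. Over all 9351 genes tested, 5187 had fold changes above 0 and 2.46% were called higher. Nt5c3b, a cytosolic nucleotidase gene, had 19.8, 20.4 and 18.6 RPKM in GFP-hi and 15.7, 15.3 and 16.1 RPKM in GFP-lo (log2 fold change 0.30, limma adjusted p = 0.026, 0.00899 to 0.142 over 20 alternatives). Nt5dc2, of a related family with a nucleotidase-like domain, had 1.87, 1.39 and 1.44 against 0.825, 0.760 and 0.775 RPKM (log2 fold change 0.52, limma adjusted p = 0.021, 0.0055 to 0.104 over 19 alternatives). Nt5dc2 passed the minimum through the GFP-hi libraries, and it was called without a minimum too. Nt5c3b and Nt5dc2 each lost the call in 5 of the 6 fits without 1 library, and kept it without GFP-hi replicate 2. The most abundant of the family, Nt5c, had 44.7 ± 4.08 and 41.2 ± 0.52 RPKM (SD, n = 3 each) and was not called. Fold changes of the others were 0.20 (Nt5c3), 0.09 (Nt5dc1), 0.08 (Nt5m) and 0.02 (Nt5c2). Nt5dc3 stayed below the minimum, with 0.842 to 0.974 RPKM in GFP-hi and 0.889 to 0.996 RPKM in GFP-lo.

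Deaminases, kinases, salvage enzymes and the enzymes that build purines were not called in the fit across all genes. The largest fold change among them was that of Ampd1, which deaminates AMP, with 18.5, 18.8 and 14.6 RPKM in GFP-hi and 12.2, 12.1 and 13.4 RPKM in GFP-lo (0.43, limma adjusted p = 0.054). Ampd1 was called higher without GFP-hi replicate 3 (0.54) and with robust variance estimates (0.43). Adal, a relative of Ada that acts on modified adenosine nucleotides, had -0.01 (95% interval -0.17 to 0.15). All 7 salvage and breakdown genes, among them Hprt (0.17), Dck (0.15) and Xdh (0.12), had fold changes above 0, as had 5187 of all 9351 genes tested. Adjusted p values of the 7 in limma ran from 0.21 to 0.94. Purine synthesis from its start showed 5 genes above and 4 below 0, from Paics at 0.16 to Atic at -0.14. The 6 genes of the methylation cycle, where Ahcy releases adenosine from S-adenosylhomocysteine, lay between -0.13 and 0.05. Of the adenylate kinases, which exchange phosphate among adenine nucleotides, Ak3 had 0.19 and Ak6 0.20. On the way from IMP to GMP, the 5 tested genes ran from -0.01 (Impdh1) to 0.23 (Itpa). Relatives of Dpp4 had -0.04 (Dpp9), -0.02 (Dpp8), -0.01 (Dpp7), 0.04 (Prep) and 0.06 (Dpp3), and a difference between them and Dpp4 was not tested.

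**Figure D4:**
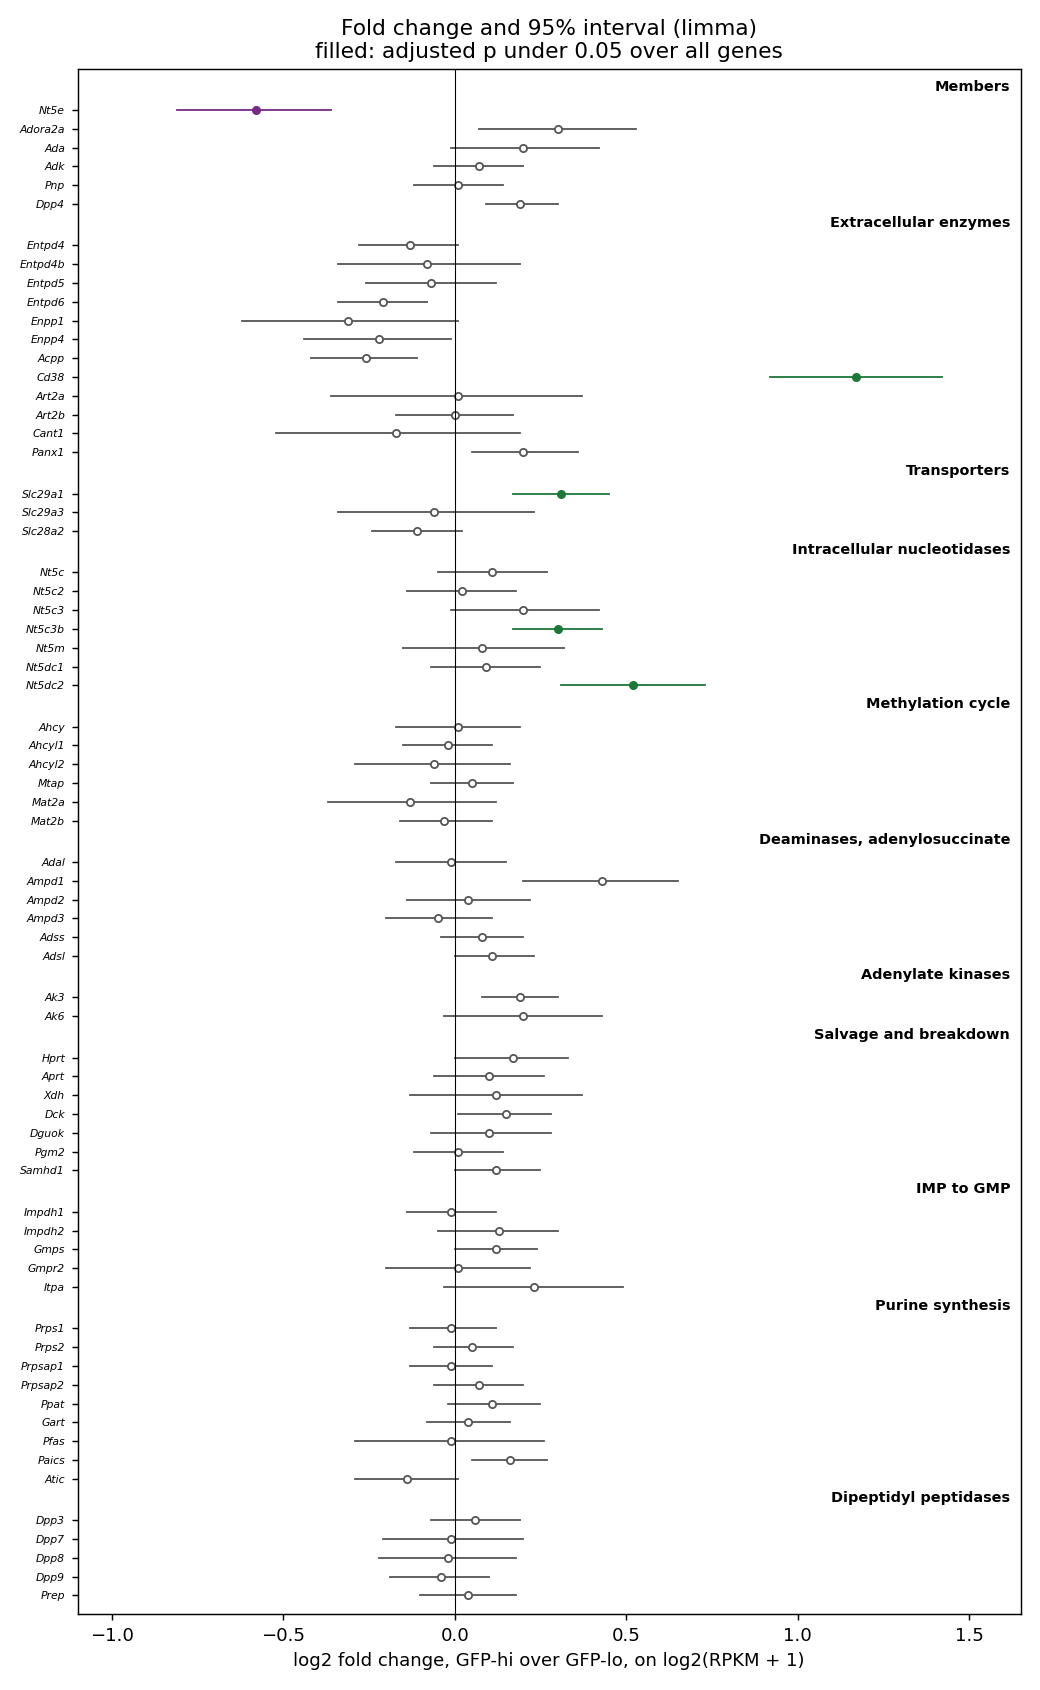
Log2 fold change of GFP-hi over GFP-lo with its 95% limma interval for the 6 genes and the tested pathway genes, 1 of which is not drawn, grouped by function. Filled points had an adjusted p under 0.05 over all genes: Nt5e at -0.58, and Cd38 at 1.17, Nt5dc2 at 0.52, Slc29a1 at 0.31 and Nt5c3b at 0.30.

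The genes whose pattern over the 6 libraries was most like that of Nt5e were Rnu3a, Fcgrt, Abhd15, Sntb1 and Leng9. Likeness was the mean absolute difference of log2(RPKM + 1) after each gene's own mean was subtracted, and it was 0.0544, 0.0654, 0.0826, 0.0847 and 0.0908. Rnu3a encodes a small nucleolar RNA and Fcgrt the neonatal Fc receptor. Fcgrt, for example, had 8.31, 8.42 and 8.20 RPKM in GFP-hi and 11.6, 12.9 and 11.2 RPKM in GFP-lo libraries. The choice of neighbours was not stable: with a pseudocount of 0.1, 1 of these 5 stayed among the nearest 5, and without a single library from 1 to 3 did. It was 0 of the 5 in the 4 libraries with less heat-shock RNA. The same held in the 4 with a higher nasal receptor median, and with that median subtracted.

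The identity of the sorted cells was checked against marker genes. All 8 CD8 T cell markers had rows, none was called, and their summed level was 1650 to 1770 RPKM in GFP-hi and 1620 to 1670 RPKM in GFP-lo. All 8 naive markers had rows, and of them Il7r was lower in GFP-hi. Regulatory T cells carry much CD39 and CD73. Of their 10 markers 6 had rows, with sums of 24.2 to 29.4 RPKM in GFP-hi and 20.8 to 22.0 RPKM in GFP-lo, and Ikzf2 rose, while Foxp3 and Il2ra had no row. Most of the sum was Tnfrsf18, with a log2 fold change of 0.03. Ctla4 stood at 0.53 and Capg at 0.18, neither called. Below the minimum, Ikzf4 had 0.462 to 0.574 RPKM in GFP-hi and 0.187 to 0.281 RPKM in GFP-lo. Nrp1, also below it, had 0.676 to 0.927 RPKM in GFP-hi and 0.52 to 0.701 RPKM in GFP-lo. Of 12 memory CD8 markers 9 had rows, with sums of 149 to 166 RPKM in GFP-hi and 179 to 192 RPKM in GFP-lo. Cxcr3 was called lower, and no other marker of this list was called. Ly6c2 (-0.82) and Cxcr6 (-0.32) had lower values in GFP-hi without overlap, and Il2rb (0.26) higher values without overlap. Ccl5 stood at -0.40, Tbx21 at -0.11, Cd44 at -0.06 and Eomes at -0.01. Of 5 CD4 T cell markers 3 had rows (18.6 to 27.2 against 37.7 to 49.4 RPKM); Cd40lg was lower, Izumo1r higher, and Cd4 had no row. Of 7 thymocyte markers 5 had rows (35.8 to 41.9 against 29.4 to 34.8 RPKM), and Ccr9 was higher, while Dntt had lower values in GFP-hi without overlap (-0.39) and Cd1d1 stood at 0.03, neither called. The part of such cells in the values of Nt5e and Cd38 was not tested.

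B cells, which can also carry CD73, had 3 of 9 markers in the table (12.6 to 14.2 RPKM in GFP-hi, 11.1 to 11.4 in GFP-lo), led by Cd79b, and Cd79a had no row. Myeloid markers (3 of 12) summed to 20.5 to 25.8 and 20.6 to 22.5 RPKM, led by Cst3. The natural killer value (1 of 5), 298 to 316 and 276 to 284 RPKM, was that of Nkg7 alone. Stromal and endothelial markers (4 of 7) summed to 29.7 to 31.1 and 28.1 to 33.0 RPKM. Nearly all of that sum was Pecam1 (27.7 to 32.6 RPKM), while Kdr, Col3a1 and Pdgfrb had at most 0.443 RPKM. Whether the sorted cells or other cells gave these values was not tested. Gamma-delta T cell and erythroid or platelet markers had 1 row each, at no more than 0.617 and 1.94 RPKM. None of these was called. The heat-shock gene Hspa1a had 1100 RPKM in GFP-hi replicate 2 and 1230 RPKM in GFP-lo replicate 2, against at most 235 RPKM in the other 4 libraries. Nr4a1, from which the reporter is built, had overlapping ranges in the populations (37.0 to 90.9 RPKM in GFP-hi, 33.8 to 84.9 in GFP-lo), and so did the transcript of the reporter, listed as GFP (214 to 262 against 191 to 216 RPKM), so neither checks the gate.

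**Figure D5:**
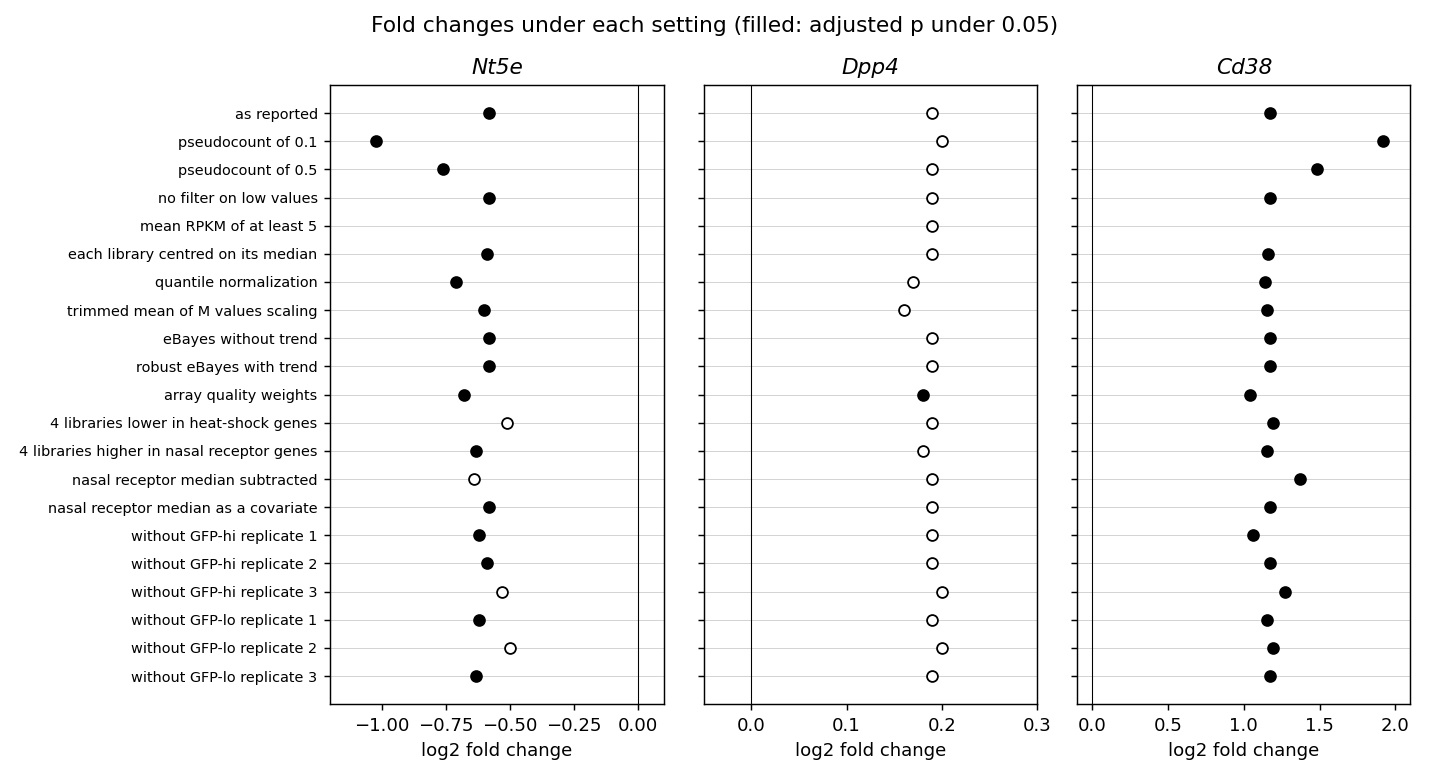
Log2 fold change (GFP-hi over GFP-lo) of Nt5e, Dpp4 and Cd38 as reported and under 20 other settings, filled where the adjusted p was under 0.05; a missing point marks a gene below the minimum of that setting. Nt5e stays below 0 (-1.02 to -0.50), Dpp4 between 0.16 and 0.20 and Cd38 above 1 (1.04 to 1.92).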

How the data were processed

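RNA was measured in 6 libraries, 3 GFP-hi and 3 GFP-lo. Per the labels' protocols, the SMART-seq v4 kit gave cDNA and Nextera XT the libraries. The authors deposited RPKM values, per the file headers; STAR and the build mm10 are named in the submitters' processing notes, and the counter and annotation are not given in the sources used here. Each column carried a sample's title, and the reporter label gave its group.

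Of 11162 genes, the 9351 averaging 1 RPKM or more were tested with limma 3.58.1 (R 4.3.3) on log2(RPKM + 1) with a mean-variance trend, no covariate, two-sided, with Benjamini-Hochberg adjustment over all genes tested. In 5 simulations over 9351 genes, with 200 changed by 1 on the log2 scale, 97.4% were recovered and 4.59% of calls were false. All 6 genes of the set changed by less than 1. Smaller changes were not simulated, so this recovery does not apply to them. Noise was drawn for each gene separately, so neither percentage covers effects shared by the genes of a library. Depth was recovered from single-transcript genes of GENCODE M21 (transcripts of up to 4000 bases), whose low values came to whole reads, to within 0.1, in 92.4% to 94.5% of cases (chance gives 20%). Gene names, positions and promoters come from RefSeq GRCm38.p6, where 6 of the 7 genes (not Adora2a) and Cd38 had a promoter entry. Figures were drawn with matplotlib 3.10.9.

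Some genes of the lists are not reported here by name. The genes and lists were chosen with earlier results of these data known. Named are the set, its paralogs, every listed pathway gene with an adjusted p under 0.05, and the 5 genes most like Nt5e; other pathway genes, markers and heat-shock genes were named after their values were seen. Alternatives changed the pseudocount, filter, scaling, variance model and libraries. Subtracting the nasal receptor median, or using it as a covariate, was added after seeing the data.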

Additional observations from a re-analysis of the deposited data

How the results depend on the processing

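The direction of Nt5e, Dpp4, Ada, Adk and Cd38 was the same in each alternative in which they were tested (19 for Nt5e and Cd38, 20 for the others), and that of Adora2a in 19; Pnp, at 0.01, changed sign within -0.02 and 0.02. Nt5e had a log2 fold change of -1.02 with a pseudocount of 0.1, -0.76 with 0.5 and -0.71 with quantile normalization; lower pseudocounts compress low genes less by construction. Dpp4 had 0.17 with quantile normalization and 0.16 with trimmed mean of M values scaling. The number of genes called, 369, was 202 with a mean RPKM of at least 5 (fewer genes tested), 1282 with array quality weights, 101 in the 4 libraries with less heat-shock RNA, and 133 to 315 without 1 library, lowest without GFP-lo replicate 2. The number of pathway genes called, 4, was 2, 11 and 1 under the first 3 of these and 1 to 3 without 1 library. It fell to 1 when GFP-hi replicate 1 or any single GFP-lo library was left out, and to 2 when GFP-hi replicate 3 was. Apart from the causes named, the cause was not tested. No scaling moved the median of all genes by over 0.1 on the log2 scale.

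No paired analysis was run because the labels give no replicate number or pairing, and numbers here follow record order. The fits treat the 6 libraries as unpaired, so any pairing that existed is ignored. At a minimum of 5 RPKM, Nt5e, Adora2a, Pnp, Cd38 and Nt5dc2 were not tested. Depth limits Cd38 and Nt5e, whose lower groups rest on 53 to 69 and about 74 to 104 reads.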
